A study of Mus musculus with 4 samples.

Results

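Genes that are switched on by the ERK branch of MAP kinase signalling were followed in MC3T3-E1 cells as the cells were given osteogenic medium. The cells are a preosteoblast line from newborn C57BL/6 mouse calvaria. Most of the genes, but not Etv4 and Etv5, encode proteins that dampen the signalling. The set holds 10 genes, chosen by name: the dual-specificity phosphatase genes Dusp4, Dusp5 and Dusp6, the Sprouty genes Spry1, Spry2 and Spry4, the Spred genes Spred1 and Spred2, and the ETS transcription factor genes Etv4 and Etv5. They are 10 of 18193 named genes on the array and were covered by 28 probe sets. All 10 were above the detection floor, a signal of 57.8, on at least 1 array with their brightest probe set.

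RNA from 4 cultures was hybridised to Affymetrix Mouse Genome 430 2.0 arrays, 1 culture and array for each combination of medium and day. Control cells stayed for 3 or 6 days in normal medium, which was MEM α with 10% fetal bovine serum. Treated cells stayed for 3 or 6 days in osteogenic medium, which had the same base and serum with 150 µM of ascorbic acid 2-phosphate and 10 mM of beta-glycerophosphate added. The supplements were given together, so their effects cannot be told apart. The cells are 1 established line and no group had a second culture, so the spread between cultures is unknown for every difference between 2 arrays. A gene is counted as higher or lower where 2 single arrays differ by a log2 value of at least 1, which is 2-fold. The probe-to-probe error of a log2 difference, estimated from genes with several probe sets, was 0.24 at day 3 and 0.22 at day 6, and it covers probe error only.

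Growth factor receptors activate RAS, which starts a chain of kinases that ends in ERK. ERK then induces its own brakes: the DUSP proteins are phosphatases that remove the activating phosphates from MAP kinases, Sprouty proteins act upstream between receptor and RAF, and SPRED proteins bring the RAS-inactivating protein neurofibromin to the membrane. ETV4 and ETV5 are ETS factors of the PEA3 group whose transcription follows FGF and ERK signalling, so that transcript levels of these genes are widely read as a sign of pathway output. In osteoblasts the pathway carries signals from FGF and other growth factors and from matrix attachment. No measurement of ERK phosphorylation was used here.

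The array from osteogenic medium at day 6 stood apart on the controls for 18S ribosomal RNA and was the lowest on all 3 of them. The control for 5′ sequence read 746 there and 5202 to 9162 elsewhere, that for middle sequence 409 against 784 to 994, and that for 3′ sequence 232 against 267 to 303. The ratio of 3′ to 5′ signal was 0.763 for Gapdh and 1.25 for Actb there, in ranges of 0.756 to 0.769 and 1.17 to 1.25 over all 4 arrays. The part of this in the day 6 differences was not tested, and the day 3 differences do not use that array. All 7 osteoblast marker genes named in the annotation table used here were above the floor on at least 1 array, 6 of them on all 4. Of markers for other cell types, 0 of 5 endothelial and 0 of 4 adipocyte genes were above the floor on any array. Of 6 leukocyte genes Ptprc, Cd68 and Cd3e never were, while Cd14, Lyz2 and Csf1r were above it on all 4. Summed leukocyte signals ranged from 685 to 985 and summed smooth muscle signals, mostly Acta2 and Tagln, from 47972 to 65561. Single markers in these sums, named after their values were seen, passed 2-fold: Cnn1 of smooth muscle was 3.96-fold higher in osteogenic medium at day 3, and at day 6 Lmod1 of smooth muscle was 2.86-fold and Lyz2 of leukocytes 2.36-fold lower. Chondrocyte markers were 4 of 6 above the floor, with sums of 3631 and 3379 in normal medium and 5969 and 8202 in osteogenic medium at days 3 and 6. Col2a1 was 2.18-fold and 4.84-fold higher in osteogenic medium at days 3 and 6, and Cnmd 2.56-fold and 2.51-fold higher. Sox9 and Col9a1 did not pass 2-fold. These chondrocyte genes were also named after their values were seen. The part of these markers in the results was not tested.

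At day 3, 3 of the 10 genes were higher in osteogenic medium and 0 were lower. The higher ones were Etv4, Dusp6 and Dusp5, where 1.99% of 11861 measured genes passed 2-fold upwards and 1.59% downwards. At day 6, 4 of 10 were higher and 0 lower, namely Etv4, Dusp6, Dusp4 and Spry1, where 4.18% of 11901 measured genes were higher and 2.78% lower. The median log2 difference of the 10 genes was 0.14 at day 3 and 0.66 at day 6, against 0.0092 and 0.013 over all measured genes. All 10 differences lay above zero at day 6, but 8 of 10 did when the arrays were shifted to a common median, where Spred1 and Spred2 fell just below zero, 9 of 10 with the mean of all probe sets of a gene (Spred1 was below), and 2 of the 4 genes that had a next brightest probe set above the floor (Spry4 and Spred1 were below). The culture in osteogenic medium at day 6 had the highest signal of the 4 for each of the 10 genes by its brightest probe set, while this array was the highest for 29.9% of 12503 genes. The exceptions were Spred1 and Spred2 under the median shift, Spred1 with the mean of all probe sets, and Spry4, Spred1 and Etv5 among the 4 genes with a next brightest probe set.

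**Figure D1:**
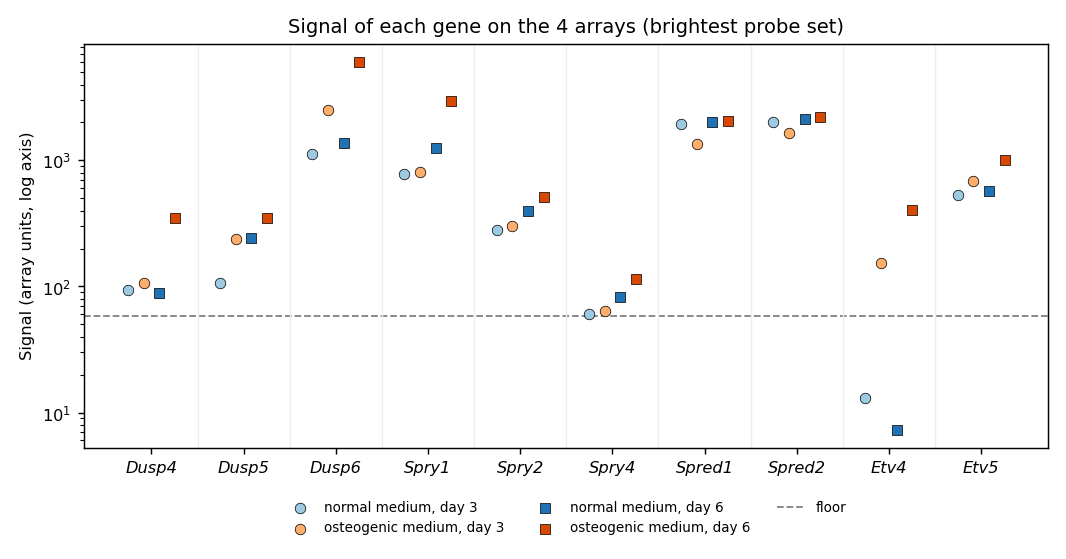
Signal of the brightest probe set of each gene (vertical axis, array units on a log axis) on the 4 single arrays, with the floor of 57.8 as a dashed line. The osteogenic day 6 square is the highest point for every gene, and the Etv4 points of both normal medium arrays lie below the floor.

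Dusp6 encodes a cytoplasmic phosphatase with high selectivity for ERK. Its signal was 1132 in normal and 2511 in osteogenic medium at day 3, and 1371 in normal and 5995 in osteogenic medium at day 6. Both osteogenic cultures were above both normal cultures, and the day 6 culture was far above the day 3 culture. Dusp6 was 2.22-fold higher in osteogenic medium at day 3 (log2 difference 1.15) and 4.37-fold higher at day 6 (2.13). Over all measured genes, 137 of 11861 had a difference at least as high at day 3 and 66 of 11901 at day 6. Across the alternative settings its log2 difference stayed between 1.11 and 1.17 at day 3 and between 2.08 and 2.13 at day 6.

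Dusp4 encodes a nuclear phosphatase that acts on ERK and on stress-activated MAP kinases. Its signal was 94.3 in normal and 106 in osteogenic medium at day 3, and 89.1 in normal and 348 in osteogenic medium at day 6. The first 3 of these signals were close together, and the osteogenic day 6 culture alone was high. The log2 difference between media was 0.17 at day 3 and 1.97 at day 6, a 3.91-fold higher signal at the later day. The day 6 difference was 1.47 with a pseudocount of the floor's size in place of the floor.

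Dusp5 encodes a nuclear phosphatase specific to ERK, and its low point was elsewhere. Its signal was 107 in normal medium at day 3 and between 237 and 346 on the other 3 arrays, with 237 in osteogenic medium at day 3, 244 in normal medium at day 6 and 346 in osteogenic medium at day 6. The normal medium day 3 culture alone was low, and the signals of the media overlapped across days. Dusp5 was 2.21-fold higher in osteogenic medium at day 3 (log2 difference 1.15) and 1.42-fold at day 6 (0.51). Its signed medium difference changed by -0.64 on the log2 scale from day 3 to day 6, the 1 negative change among the 10 genes. Its day 3 difference was 0.84, below 2-fold, with the pseudocount in place of the floor.

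To show the DNA around the start sites of these phosphatase genes, the 250 bases upstream were read from a table of RefSeq promoters. Entries for 7 of the 10 genes were used (8 windows, build GRCm38.p6). Dusp6 lies on the plus strand at chr10:99262981-99263230, and Dusp5 on the plus strand at chr19:53528895-53529144. Both are printed 5′ to 3′, ending at the base before the start site. In the Dusp6 sequence capitals mark GGAA, the core of ETS factor sites, or its reverse complement. In the Dusp5 sequence capitals mark CArG boxes, the element bound by serum response factor.
Dusp6: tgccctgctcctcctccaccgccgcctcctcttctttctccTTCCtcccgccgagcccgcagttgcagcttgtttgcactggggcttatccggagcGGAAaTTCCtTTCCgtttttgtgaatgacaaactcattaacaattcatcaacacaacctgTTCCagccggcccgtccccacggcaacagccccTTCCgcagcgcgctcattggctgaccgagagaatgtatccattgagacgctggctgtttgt
Dusp5: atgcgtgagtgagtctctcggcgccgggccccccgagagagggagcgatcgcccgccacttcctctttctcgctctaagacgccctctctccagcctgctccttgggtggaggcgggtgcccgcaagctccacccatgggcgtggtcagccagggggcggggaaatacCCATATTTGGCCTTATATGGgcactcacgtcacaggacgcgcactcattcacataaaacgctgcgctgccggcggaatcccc
The Dusp6 window held 6 GGAA matches on either strand, against a median of 3 in all 32851 windows of that length, of which 93.4% held at least 1. The Dusp5 window held 2 CArG boxes, a motif present in 1.47% of all windows and in 1 of the 8 windows of these genes. Searched on both strands, the longer ETS motif CCGGAA (12% of all windows), the cAMP response element TGACGTCA (1.55%) and the AP-1 motif TGANTCA (6.75%) matched in 0 of the 8 windows. A match is a description of the letters in this window only.

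Sprouty genes encode inhibitors that are induced by growth factors and block the path from receptor to RAF. Spry1 had a signal of 785 in normal and 809 in osteogenic medium at day 3, and 1262 in normal and 2963 in osteogenic medium at day 6. The day 3 cultures were alike, and both day 6 cultures were higher, the osteogenic one most. Its log2 difference between media was 0.044 at day 3, within the probe error, and 1.23 at day 6, which is 2.35-fold. Between days it was 1.61-fold higher at day 6 in normal medium and 3.66-fold higher in osteogenic medium.

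Because Spry1 had this late difference, its upstream window is shown in the same way, from the plus strand at chr3:37639697-37639946 of GRCm38.p6, with GGAA in capitals.
Spry1: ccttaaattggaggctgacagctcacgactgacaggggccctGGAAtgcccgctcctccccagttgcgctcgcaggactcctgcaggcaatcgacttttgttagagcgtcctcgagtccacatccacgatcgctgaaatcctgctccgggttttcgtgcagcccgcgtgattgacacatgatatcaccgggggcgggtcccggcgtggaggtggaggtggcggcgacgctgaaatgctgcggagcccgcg
It held 1 GGAA match, fewer than the median of 3 over all windows.

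Spry2 and Spry4 had smaller differences in the same direction. Spry2 had a signal of 282 in normal and 304 in osteogenic medium at day 3, and 396 in normal and 512 in osteogenic medium at day 6. Its medium difference was 0.11 at day 3 and 0.37 at day 6 on the log2 scale, with the day 6 value 1.29-fold. Spry4 was near the floor at day 3, with signals of 60.8 and 63.5, and stood at 82.0 in normal and 116 in osteogenic medium at day 6. Its log2 difference was 0.061 at day 3 and 0.50 at day 6, and a dimmer Spry4 probe set, above the floor at day 6 in both media, had -0.15 there. By their brightest probe sets all 3 Sprouty genes had both day 6 cultures above both day 3 cultures. Dusp5, Spred1 and Spred2 had this order too, so it is not particular to the Sprouty genes. The share of all genes with this order was not counted, so it is a description only.

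SPRED proteins share the cysteine-rich domain of Sprouty and act with neurofibromin on RAS. Spred1 had a signal of 1936 in normal and 1346 in osteogenic medium at day 3, and 2017 and 2071 at day 6. The osteogenic day 3 culture alone was low, by a log2 difference of -0.53, and the media differed by 0.038 at day 6. Spred2 had 2031 and 1642 at day 3, and 2138 and 2215 at day 6, with log2 differences of -0.31 and 0.051. Neither gene reached 2-fold in any comparison. Of 7 Spred1 probe sets measured at day 3, 6 had a negative difference, down to -0.61, and the 1 above zero (0.39) was above the floor on 1 array only. At day 6 the 6 measured Spred1 probe sets lay between -0.19 and 0.059. The 3 Spred2 probe sets measured at day 3 were all below zero, from -0.31 to -0.075. The value of -0.075 was smaller than the probe error of 0.24. Another, -0.25, was a bound from a probe set above the floor on 1 array only.

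**Figure D2:**
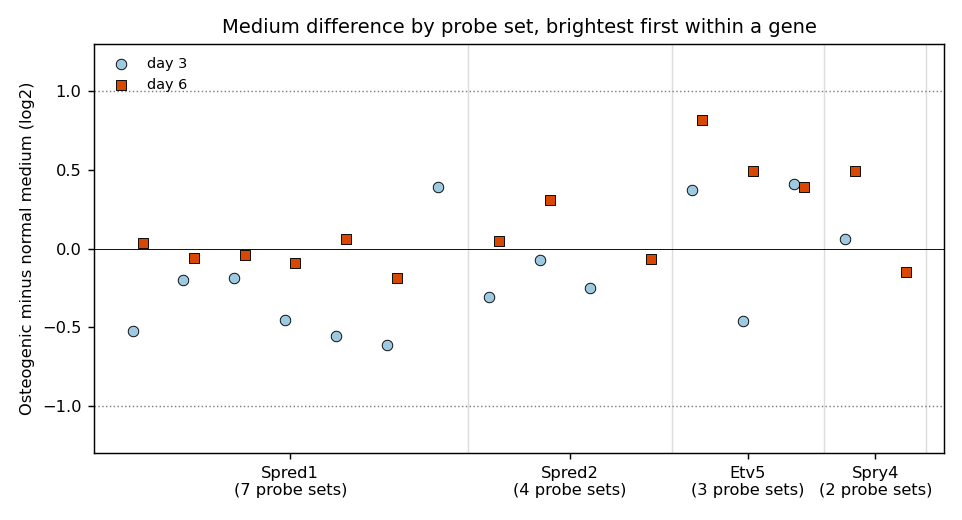
Log2 difference between osteogenic and normal medium (vertical axis) for each measured probe set of the 4 genes with more than 1, ordered by brightness within a gene, with circles for day 3 and squares for day 6. Spred1 circles lie below zero for 6 of 7 probe sets while its squares sit between -0.19 and 0.059, and the squares of all 3 Etv5 probe sets lie above zero.

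Etv4 went from below the floor in normal medium to above it in osteogenic medium. Its signal was 13.1 in normal and 154 in osteogenic medium at day 3, and 7.31 in normal and 402 in osteogenic medium at day 6. Both normal medium values were below the floor and have no order, so only a lower bound can be given. Etv4 was at least 2.66-fold higher in osteogenic medium at day 3 and at least 6.96-fold higher at day 6, and within osteogenic medium it was 2.61-fold higher at day 6 than at day 3. Only 24 of 11901 genes had a difference at least as high at day 6. The bound depends on the floor: on the log2 scale it was 1.41 at day 3 and 2.80 at day 6, and 0.36 and 1.75 if the floor was raised to the 60th percentile, where Dusp6 had the higher value at both days. With the mean of both probe sets it was 0.71 and 1.40. The other Etv4 probe set was below the floor on all 4 arrays.

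Etv5 had a signal of 529 in normal and 684 in osteogenic medium at day 3, and 571 in normal and 1008 in osteogenic medium at day 6. Both osteogenic cultures were above both normal cultures, by 1.29-fold at day 3 and 1.77-fold at day 6, short of 2-fold. Its other 2 probe sets gave log2 differences of -0.46 and 0.41 at day 3 and of 0.49 and 0.39 at day 6, so the sign at day 3 differed between probe sets. With its brightest probe set Etv5 joined Etv4, Dusp4 and Dusp6 as the 4 genes whose osteogenic signals both exceeded the normal ones, an order found in 21.7% of 12503 genes.

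**Figure D3:**
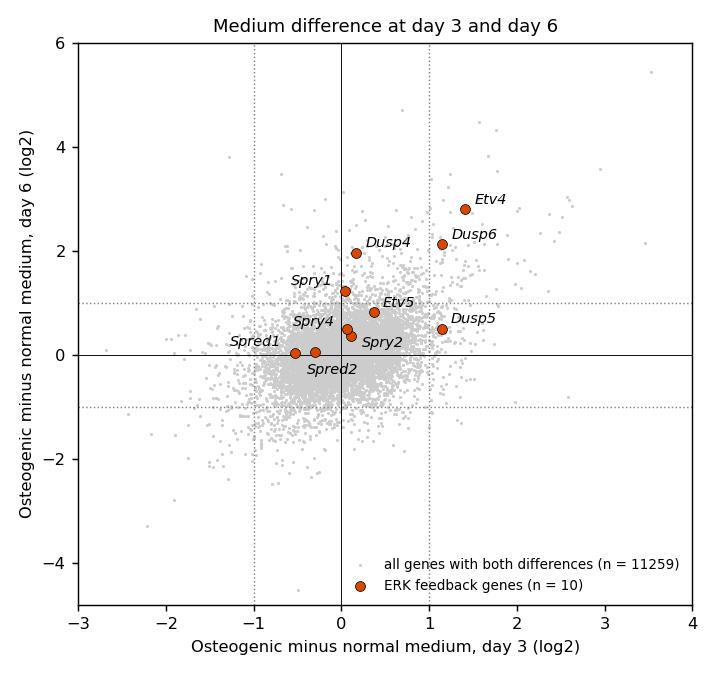
Log2 difference between osteogenic and normal medium at day 3 (horizontal axis) and day 6 (vertical axis), with grey points for 11259 genes, orange points for the 10 ERK feedback genes and dotted lines at 2-fold. Etv4 and Dusp6 passed 2-fold at both days, Dusp5 at day 3 only, and Dusp4 and Spry1 at day 6 only.

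The time comparisons share arrays with the medium comparisons and are given as values only. In osteogenic medium all 10 genes had a higher signal at day 6 than at day 3 by their brightest probe sets, as did 49.9% of all measured genes. Below zero were 2 of 7 measured Spred1 probe sets (-0.040, and -0.39 as a bound) and 1 of 3 for Etv5 (-0.091). Of the 10, 4 passed 2-fold there, with log2 differences of 1.87 for Spry1, 1.72 for Dusp4, 1.39 for Etv4 and 1.26 for Dusp6. There 3.7% of 11947 genes were higher, and the median of the 10 was 0.81 against -0.0012 over all genes. In normal medium 9 of the 10 genes could be compared, with a median of 0.28 against -0.015 over all genes, and 1 passed 2-fold, Dusp5 (1.18), where 0.741% of 11736 genes were higher and 0.741% lower. With a shift to a common median the split of all genes past 2-fold in normal medium moved from 50% higher to 62.8% higher. For Dusp4 (-0.081), Spred1 (0.059), Spred2 (0.074) and Etv5 (0.11) the difference in normal medium was below the probe error of 0.21. Besides Dusp5, it was above the probe error for Dusp6 (0.28), Spry4 (0.43), Spry2 (0.49) and Spry1 (0.69). A second Etv5 probe set, above the floor on all 4 arrays, had -0.83 in normal medium, so its probe sets differed there. The change of the medium difference from day 3 to day 6 was 1.80 for Dusp4, 1.19 for Spry1 and 0.98 for Dusp6 on the log2 scale. Of the 9 genes above the floor on all 4 arrays, Dusp4 and Spry1 passed 2-fold upwards in this change, where 3.56% of 10250 such genes did. For Etv4 the normal medium side is below the floor at both days, so it is not counted.

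A single fit tested the medium over both days, with day as a covariate and 1 residual degree of freedom. In limma 0 of 11259 genes reached an adjusted p below 0.05, with 1661 genes at an unadjusted p below 0.05, and without moderated variances 0 genes did, with 848. Dusp6 had a log2 medium difference of 1.64 with a standard error of 0.29 (limma adjusted p = 0.208), higher in osteogenic medium at 2 of 2 days. For Etv4 the fitted difference rests on the floor and moved from 1.05 to 4.67 over the alternatives, so it is no estimate of size, and its limma adjusted p of 0.208 rests on the same floor. Over the alternatives the limma adjusted p ranged from 0.0576 to 0.69 for Dusp6 and from 0.168 to 0.678 for Etv4. Without moderated variances the adjusted p for Etv4 was 0.687. The other 8 genes had limma adjusted p values from 0.268 (Dusp5) to 0.801 (Spred2). None of the 10 genes therefore passed the test of the medium, while at each day the differences described above stand as values of single arrays.

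The rest of the pathway was read from gene lists. Of 7 other MAP kinase phosphatase genes 5 were measured, and 1 was higher at each day, Dusp8, which encodes a phosphatase of stress-activated MAP kinases. Dusp8 was below the floor in normal medium at day 3 (48.4) and had signals of 240 in osteogenic medium at day 3, 104 in normal medium at day 6 and 253 in osteogenic medium at day 6, at least 4.15-fold and 2.43-fold higher. Dusp1, an immediate-early phosphatase named after its values were seen, differed more by day than by medium, with signals of 396 and 462 at day 3 and 1477 and 2154 at day 6 in normal and osteogenic medium. Of 4 measured genes among other feedback and family genes 0 passed 2-fold, and the largest day 6 values were below zero, Spred3 at -0.62 as a bound and Lrig1, which promotes receptor degradation, at -0.55. Spry3 was below the floor on every array.

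The kinase chain itself had no gene past 2-fold. Of 14 genes of the RAS to ERK cascade named in the table used here, 0 passed 2-fold at day 3 or day 6, with medians of -0.029 and 0.057. Over all measured genes 3.57% passed 2-fold in either direction at day 3 and 6.96% at day 6. With 14 genes, 0 is near those shares, so this is a description only. The largest day 6 values were 0.38 for Rasa1, a RAS GTPase activator, and 0.33 for Ksr1, a scaffold of the cascade. Among receptor tyrosine kinases 9 of 11 measured genes lay below zero at day 3 and 8 of 10 at day 6. Over all measured genes 51.0% and 51.2% lay above zero. Several of the receptor values below zero were smaller than the probe error of 0.24 at day 3 and 0.22 at day 6. Pdgfra, a receptor for platelet-derived growth factor, was the 1 receptor gene past 2-fold, 2.57-fold lower at day 6, with a signal of 6096 in normal and 2371 in osteogenic medium. At day 3 its log2 difference was -0.99, and it passed 2-fold there without further scaling and after quantile normalization. The FGF receptor genes were added after their values were seen. At day 3 and day 6 the log2 differences were -0.34 and -0.10 for Fgfr1 and -0.14 and -0.33 for Fgfr2. They were -0.53 and -0.24 for Fgfr3, and -0.55 and -0.18 for Fgfr4.

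Growth factor ligand genes divided. At day 3, 1 of 12 measured ligands passed 2-fold, Nrg1, which encodes an ERBB ligand and was 2.07-fold lower. At day 6 the same list had 13 measured genes, 3 of them higher and 2 lower. Ereg, an EGF receptor ligand, had signals of 104 in normal and 435 in osteogenic medium at day 6, 4.2-fold higher. Igf2 was 4.25-fold and Vegfa 2.95-fold higher, while Igf1 was 3.94-fold lower and Fgf18, an FGF ligand of bone, 2.27-fold lower. Tgfa and Hbegf, also EGF receptor ligands and named after their values were seen, did not pass 2-fold at either day, with day 6 values of 0.49 (a bound) and 0.59 and day 3 values of -0.62 (a bound) and -0.47.

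Other genes known as ERK targets mostly lay above zero. At day 3 and at day 6, 18 of 20 did (17 at day 6 after the median shift), against 51.0% and 51.2% of all measured genes, with medians of 0.60 and 0.55. At day 3 Fos (1.36) and Fosb (1.08), immediate-early subunits of AP-1, were higher. At day 6 the higher ones were Fosl1 (at least 6.87-fold), a late AP-1 subunit, Maff (5.95-fold), a small MAF factor, Hmga2 (5.6-fold), a chromatin protein, and Plaur (2.36-fold), the urokinase receptor. In normal medium Egr1, Egr2, Fos, Junb and Ier2 were higher at day 6 than at day 3, as Dusp5 was, and Fosl1 was lower, below the floor; these genes were named here after their values were seen. Proliferation markers had 7 of 9 above zero at day 3 (median 0.30) and 0 of 9 at day 6 (median -1.02, 5 of 9 lower), and their part in the ERK feedback genes was not tested. In these bulk cultures fewer cells of a kind and less RNA per cell cannot be told apart.

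**Figure D4:**
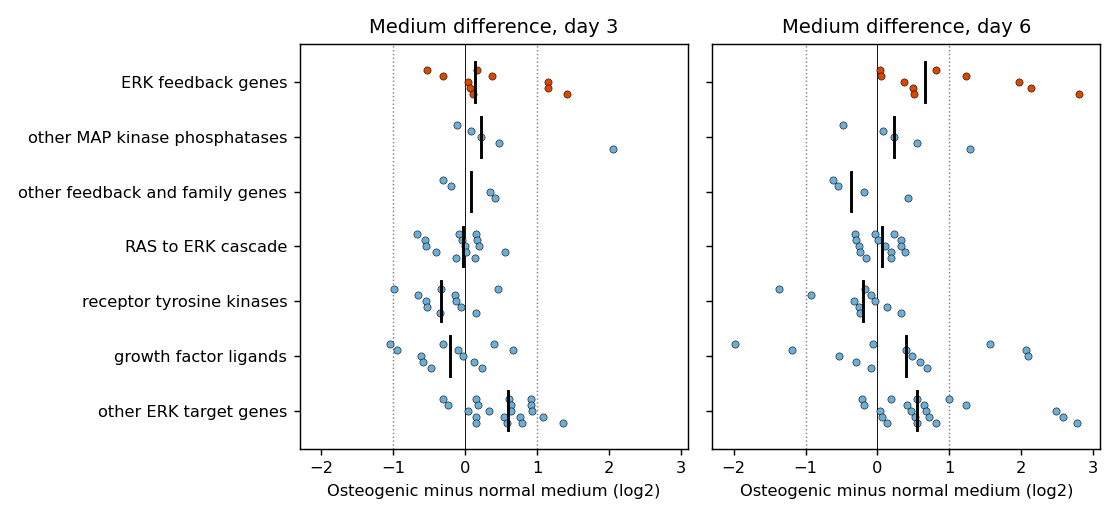
Log2 difference between osteogenic and normal medium (horizontal axis) at day 3 (left) and day 6 (right) for the measured genes of 7 lists, with 1 point per gene, black bars at the list medians and dotted lines at 2-fold. The ERK feedback genes reach from -0.53 to 1.41 at day 3 and from 0.038 to 2.80 at day 6. The 14 cascade genes stay within 2-fold at both days, as do most measured genes.

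The genes with the most similar course over the 4 arrays were taken for each gene past 2-fold at day 6, by the root mean square difference of log2 values centred on each gene's mean, among 1689 genes that varied by at least 2-fold. With 4 arrays many genes share a course, so this is a description. Dusp6 was closest to Tifa (0.062), which had signals of 119 and 284 at day 3 and 162 and 658 at day 6 in normal and osteogenic medium, then to Ch25h (0.13) and Adgre5 (0.14). Spry1 was closest to Bdnf (0.045), Rtp4 (0.070) and Foxs1 (0.080), and Dusp4 to Dhrs3 (0.092), Ncmap (0.093) and Kcnk2 (0.096). Etv4 was closest to Prss35 (0.056), Phex (0.089) and Aig1 (0.11). Prss35 and Phex were, like Etv4, below the floor on both normal medium arrays, and Ncmap and Kcnk2 were below it on all but the osteogenic day 6 array. Bdnf was below it in normal medium at day 3 (49.8). Part of the likeness of all these genes therefore comes from the floor.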

How the data were processed

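Linear intensities deposited by the authors were used, 1 value for every probe set on every array, made from biotin-labelled cRNA per the labels' protocols. Each array's intensity had a mean of 500 after 2% of probe sets were trimmed at each end. The software that made these values is not given in the sources used here. Of 45101 probe sets 64 were controls, 34945 had 1 gene symbol in GEO's platform annotation, 932 several and 9160 none. Entrez IDs of 34741 matched RefSeq (GRCm38.p6, names only) and 0 symbols changed. Arrays were first scaled to share the same 75th percentile, by factors of 1.003, 1.02, 0.988 and 0.991, set to a floor at the pooled 50th percentile (57.8) and log2-transformed. The probe set with the highest mean stood for its gene. A gene was measured where any array compared exceeded the floor. A difference from the floor is a lower bound. All genes were fitted with limma 3.58.1 in R 4.3.3, with Benjamini-Hochberg adjustment, the other steps were run in Python 3.11.15, and both were tested on simulated data. Gene lists, members and settings were chosen with earlier results of these data known. Named genes were all 10 members, genes of each pathway list past 2-fold between media (otherwise the 2 largest at day 6), and the 3 genes closest in course to each member past 2-fold at day 6; others are said to be named after their values were seen. Precision is limited by the number of arrays. Alternatives covered scaling, floor, pseudocount and the choice of probe set.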

Additional observations from a re-analysis of the deposited data

Results flagged for a closer look

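Spred1 and Spred2 drew attention because their medium differences had opposite signs at the 2 days, negative at day 3 and slightly positive at day 6. The change between days was 0.56 for Spred1 and 0.36 for Spred2 on the log2 scale. With 1 array per group this change was not tested, and the day 6 differences of 0.038 and 0.051 were smaller than the probe error of 0.22.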

How the results depend on the processing

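If the floor was raised to the 80th percentile, 4 of the 10 genes kept a value at day 3 and 5 at day 6, and the numbers past 2-fold became 1 at day 3, 2 at day 6, 0 for the days in normal medium, 2 for the days in osteogenic medium and 1 for the change between days (3 at the floor used, with Etv4 counted by its bounds), while 13 genes of the whole array reached an adjusted p below 0.05 in limma. At a floor of the 60th percentile 1 was past 2-fold at day 3. With a pseudocount 0 were past 2-fold between days in normal medium. The next brightest probe set existed above the floor for 3 or 4 genes, and 0 of them passed 2-fold in any of the 5 comparisons. Of 526 values of single genes under alternatives, 479 moved by less than the probe error (or, in limma, kept direction and side) and 47 moved by more, 0 of the values past 2-fold changing sign. The 479 include values that could not move, since a gene above both floors keeps its value when only the floor changes. They also include the Etv4 difference fitted in limma, which ranged from 1.05 to 4.67. The limma fit compared the media within days; without day in it the adjusted p was 0.281 for Dusp6 and 0.244 for Etv4.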
